A study of Mus musculus with 6 samples.

Results

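The type I interferon-stimulated genes described here are 40 antiviral effectors and sensors, chosen by name. The rule that selects them uses gene symbols and no measured value, but the members were chosen with earlier results of these data known. They were looked up among the 19938 genes that had at least 1 probe set of their own. Of the 40, 38 were measured, each by 1 probe set. Isg15 was represented only by a probe set shared with another gene symbol and Ifi44 had no probe set named for it here, so neither is given a value. The genes encoding IRF and STAT factors, interferon-induced GTPases other than Mx1 and Mx2, and antigen-processing proteins are not part of the list.

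RNA came from 3 groups of sorted CD44+ CD4+ T cells, with 2 arrays per group that the series calls biological replicates. All groups were taken from draining lymph nodes of male Bcl6-RFP reporter mice, 8 to 10 weeks old, after immunisation with KLH (keyhole limpet haemocyanin, a protein antigen) in CFA (complete Freund's adjuvant). The groups were Cxcr5+Bcl6+ cells, which carry the follicle-homing receptor Cxcr5 and the reporter for the repressor Bcl6, Cxcr5+Bcl6- cells, which carry the receptor alone, and Cxcr5-Bcl6- cells, which carry neither. The last 2 are together called the reporter-negative groups, and a difference between them is given as Cxcr5+Bcl6- minus Cxcr5-Bcl6-. Whether mice were pooled, and which days the cells were sorted on, was not given in the sources used here.

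Type I interferons bind the receptor Ifnar1/Ifnar2, whose kinases Jak1 and Tyk2 activate Stat2. A complex that contains Stat2 and Irf9 then binds the interferon-stimulated response element, a short DNA motif in front of antiviral genes. The products of those genes sense viral nucleic acids, block viral translation and replication, or modify proteins with the ubiquitin-like Isg15. Interferon gamma acts through its own receptor and induces many of the same genes.

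The values are deposited log2 levels, so a difference of 1 is 2-fold. CD4 T cell genes were present in all groups, with Cd4 at 11.93, 12.44 and 12.72 and Cd3e at 13.34, 13.40 and 13.54 (group means for Cxcr5-Bcl6-, Cxcr5+Bcl6- and Cxcr5+Bcl6+ cells). The sort genes followed the labels, Bcl6 being highest in Cxcr5+Bcl6+ cells (11.50 against 10.31 and 10.56) and Cxcr5 lowest in Cxcr5-Bcl6- cells (7.47 against 9.94 and 11.00). As a guide to the level of genes that T cells are not known to use, 1207 olfactory, vomeronasal and trace-amine receptor genes had a 95th percentile of 7.30 to 7.73 over the 6 arrays. Their median difference was 0.22 from Cxcr5-Bcl6- to Cxcr5+Bcl6+ cells and 0.30 from Cxcr5+Bcl6- to Cxcr5+Bcl6+ cells. Their 95th percentile was also higher on the Cxcr5+Bcl6+ arrays (7.72 and 7.73) than on the others (7.30 to 7.47). The part of such a shift between arrays in the differences described below was not tested. In RNA from a bulk sort, fewer cells of a type and less RNA per cell cannot be told apart.

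Interferon-stimulated genes were low in Cxcr5+Bcl6+ cells and differed less between the other 2 groups. Compared with Cxcr5-Bcl6- cells, 35 of the 38 genes fell, 1 rose and 2 did not pass the threshold, with 22 of the falls at least 2-fold. Over all genes tested, 17.7% fell in that comparison, 16.4% rose and 3.81% fell at least 2-fold, and of genes above the median level of all probe sets 30.2% fell. The median log2 difference of the 38 was -1.18, against 0.04 over all genes. Compared with Cxcr5+Bcl6- cells, 33 of 38 fell, 18 of them at least 2-fold, and 5 did not pass, with a median of -0.92 against 0.06 over all genes. In that comparison 13.2% of all genes fell, 1.76% at least 2-fold, and 23.5% of those above the median level. None of the 38 rose there (0 also at an unadjusted p under 0.05 in limma), while 11.8% of all genes did. From Cxcr5-Bcl6- to Cxcr5+Bcl6- cells, 7 of 38 fell, 2 rose and 29 did not pass, with a median of -0.05. At an unadjusted p under 0.05 in limma, 13 of the 38 were lower there and 6 higher. Of all genes, 5.49% fell and 5.5% rose in that comparison, 0.502% fell at least 2-fold, as none of the 38 did, and 8.19% of those above the median level fell. A gene was called when its adjusted p in limma was under 0.05. The 3 comparisons share arrays, so their counts are not independent.

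**Figure D1:**
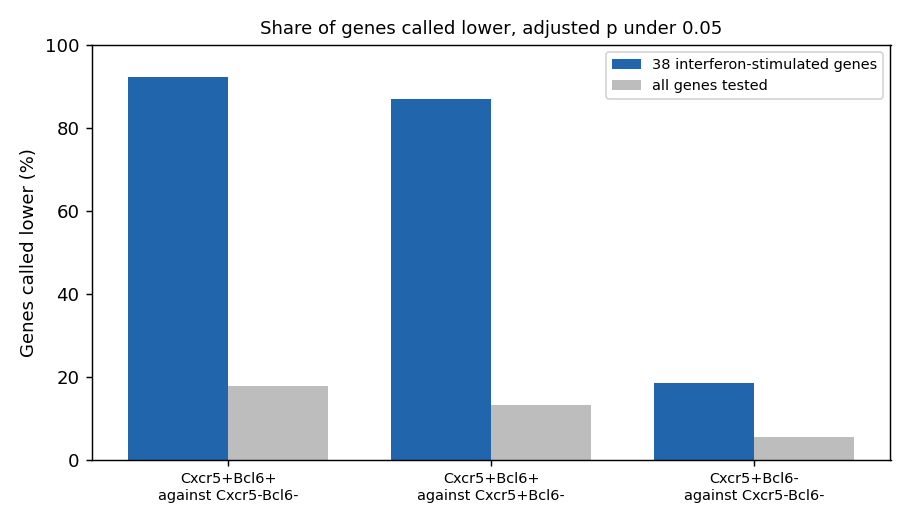
Percentage of genes called lower (adjusted p under 0.05 in limma) in each comparison, for the 38 measured interferon-stimulated genes (blue bars) and for all 19938 genes tested (grey bars). The blue bars stand at 92.1%, 86.8% and 18.4%, and the grey bars at 17.7%, 13.2% and 5.49%.

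On the arrays themselves, the median level of the 38 genes was 10.06 and 10.03 in Cxcr5-Bcl6- cells, 9.79 and 9.69 in Cxcr5+Bcl6- cells and 8.85 and 8.60 in Cxcr5+Bcl6+ cells. For 34 of 38 genes both Cxcr5+Bcl6+ arrays lay below the other 4 arrays, which was so for 20.6% of all genes. A total of 32 genes were called lower than in both other groups (11.5% of all genes), and for 24 of these the other groups were not called different from each other (8.13% of all genes). Arrays of 1 group differed by at most 0.37 for any of the 38 genes. Of the 38, 14 were at or under the 95th percentile of the receptor genes on both Cxcr5+Bcl6+ arrays. They were Dhx58, Ddx60, Ifit1, Ifit3, Mx1, Mx2, Oas2, Oasl2, Eif2ak2, Rsad2, Cmpk2, Usp18, Parp12 and Rtp4. Where such a gene fell from a group above that level, its fold difference is a lower bound, and the order of such bounds is not known. Mx2 and Cmpk2 were at or under that level on both Cxcr5-Bcl6- arrays as well, and Rsad2 and Mx1 on 1 of them, so no fold is given for Mx2 and Cmpk2 in that comparison. Mx2 is counted among the 22 and both among the 35 by their measured levels.

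**Figure D2:**
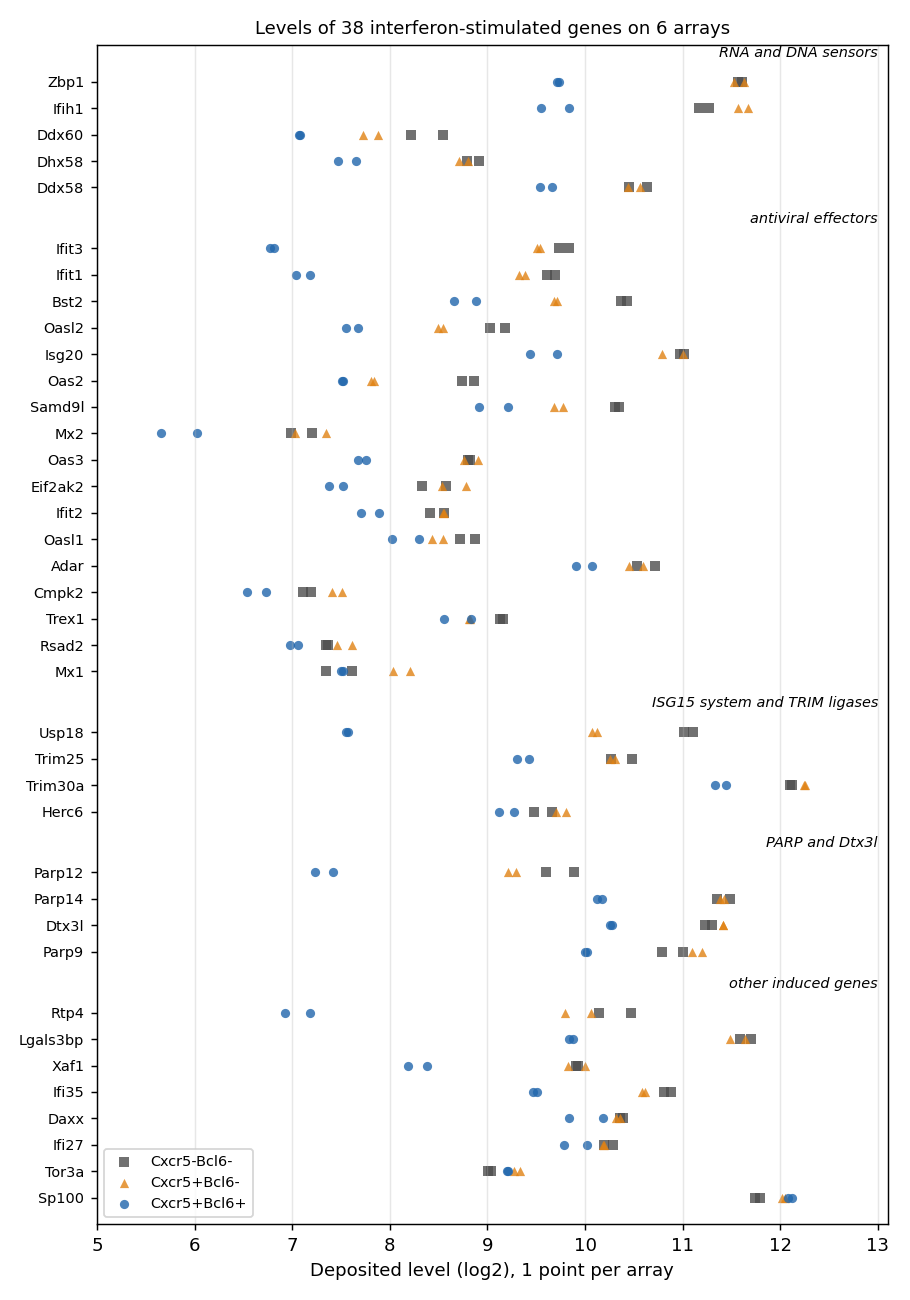
Deposited log2 level (x axis) of each of the 38 measured genes on each array, grouped by role, with grey squares for Cxcr5-Bcl6-, orange triangles for Cxcr5+Bcl6- and blue circles for Cxcr5+Bcl6+ cells, 1 point per array. The blue points lie to the left of all others for 34 of 38 genes, and the orange and grey points lie close together for most genes, with Usp18, Oas2, Bst2, Samd9l, Oasl2, Ddx60 and, in the other direction, Mx1 as visible exceptions.

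Sensors of viral RNA and DNA fell in Cxcr5+Bcl6+ cells in 5 of 5 cases against each of the other groups. Zbp1, which encodes a sensor of left-handed nucleic acid that can start necroptosis, stood at 11.61 and 11.56 in Cxcr5-Bcl6-, 11.63 and 11.52 in Cxcr5+Bcl6- and 9.72 and 9.73 in Cxcr5+Bcl6+ cells. The Cxcr5-Bcl6- and Cxcr5+Bcl6- arrays overlapped, and the Cxcr5+Bcl6+ arrays were 3.64-fold and 3.61-fold below them (log2 differences -1.87 and -1.85, SE 0.09, limma adjusted p = 3.95e-08 and 9.32e-08). Ifih1 encodes MDA5, a sensor of long double-stranded RNA. It stood at 11.27 and 11.17, at 11.66 and 11.57, and at 9.55 and 9.83 in the same order of groups, so that Cxcr5+Bcl6- cells had the highest level. It was 2.89-fold lower in Cxcr5+Bcl6+ cells than in Cxcr5-Bcl6- cells and 3.80-fold lower than in Cxcr5+Bcl6- cells (limma adjusted p = 8.46e-07 and 3.24e-07). Its rise of 0.39 from Cxcr5-Bcl6- to Cxcr5+Bcl6- cells passed narrowly (limma adjusted p = 0.0366) and did not pass without any 1 of those 4 arrays (adjusted p = 0.0544 to 0.239) or with the replicate block (0.0555), within a range of 0.0128 to 0.239 over all alternatives.

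Ddx60, which encodes a helicase that aids RNA sensing, was graded. Its arrays read 8.55 and 8.22 in Cxcr5-Bcl6-, 7.88 and 7.73 in Cxcr5+Bcl6- and 7.08 and 7.07 in Cxcr5+Bcl6+ cells, with no overlap between groups. Dhx58, which encodes the RIG-I-like regulator LGP2, read 8.91 and 8.79, then 8.80 and 8.71, then 7.47 and 7.66. It was at least 2.45-fold and at least 2.29-fold lower in Cxcr5+Bcl6+ cells than in Cxcr5-Bcl6- and Cxcr5+Bcl6- cells. Ddx58, which encodes RIG-I itself, had the smallest fall of the sensors against Cxcr5-Bcl6- cells, at 1.92-fold, and a 95% interval of -0.26 to 0.18 for the log2 difference between the reporter-negative groups.

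Antiviral effectors formed the largest role group, and 16 of 17 fell against Cxcr5-Bcl6- cells, as did 16 of 17 against Cxcr5+Bcl6- cells. Ifit3, which encodes a tetratricopeptide protein that acts with Ifit1 on viral RNA, had 9.83 and 9.73 in Cxcr5-Bcl6-, 9.54 and 9.50 in Cxcr5+Bcl6- and 6.77 and 6.81 in Cxcr5+Bcl6+ cells. It was at least 7.97-fold lower in Cxcr5+Bcl6+ cells than in Cxcr5-Bcl6- cells and at least 6.65-fold lower than in Cxcr5+Bcl6- cells (limma adjusted p = 1.47e-09 and 3.69e-09). The step between the reporter-negative groups, -0.26, did not pass (limma adjusted p = 0.0884) except among probe sets above the median level (0.0441). Ifit1, whose product binds viral RNA that lacks the host cap mark, had 9.61 and 9.69, 9.32 and 9.39, and 7.19 and 7.04. For both genes the Cxcr5+Bcl6+ arrays lay far below the other 4, of which the Cxcr5+Bcl6- arrays were the lower. The step of Ifit1 between the reporter-negative groups, -0.30, did not pass (limma adjusted p = 0.0632) except with either filter on dim probe sets (0.0490 and 0.0328). Ifit2, the next gene along the chromosome from Ifit3, fell by 0.68 and 0.75 on the log2 scale against Cxcr5-Bcl6- and Cxcr5+Bcl6- cells.

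Bst2 encodes tetherin, which holds budding virions at the cell surface and is also used as a surface marker of plasmacytoid dendritic cells. It read 10.43 and 10.36 in Cxcr5-Bcl6-, 9.71 and 9.68 in Cxcr5+Bcl6- and 8.88 and 8.65 in Cxcr5+Bcl6+ cells, and each pair of groups differed (limma adjusted p = 0.000763 between the reporter-negative groups). Oasl2, an oligoadenylate synthetase-like gene, was graded in the same way, at 9.03 and 9.18, 8.55 and 8.50, and 7.56 and 7.67. The groups did not overlap for either gene.

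The oligoadenylate synthetases, which make the messenger that activates RNase L, had different profiles in Cxcr5+Bcl6- cells. Oas2 had 8.74 and 8.87 in Cxcr5-Bcl6-, 7.83 and 7.81 in Cxcr5+Bcl6- and 7.52 and 7.51 in Cxcr5+Bcl6+ cells, with a step of -0.98 between the reporter-negative groups (limma adjusted p = 3.59e-05). The Cxcr5+Bcl6+ arrays were at the receptor-gene level, so the sizes of its 2 steps cannot be ordered. Its neighbour Oas3 had 8.80 and 8.82, 8.76 and 8.90, and 7.75 and 7.67, with a step of 0.02 (95% interval -0.18 to 0.22) between the reporter-negative groups. The difference between the 2 genes was not tested. The fall of Oas2 from Cxcr5+Bcl6- to Cxcr5+Bcl6+ cells (-0.31, adjusted p = 0.0251) did not pass without any 1 of those 4 arrays (adjusted p = 0.0708 to 0.177, within 0.00711 to 0.177 over all alternatives). Oasl1 fell by 0.64 against Cxcr5-Bcl6- cells and by 0.33 against Cxcr5+Bcl6- cells, the latter only narrowly (adjusted p = 0.0463, and 0.0133 to 0.253 over the alternatives, with 0.249 without Cxcr5+Bcl6+ replicate 2, 0.253 without Cxcr5+Bcl6- replicate 1 and 0.0879 without Cxcr5+Bcl6- replicate 2).

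The Mx genes encode dynamin-like GTPases that block viral replication. Mx2 had 7.20 and 6.99 in Cxcr5-Bcl6-, 7.03 and 7.34 in Cxcr5+Bcl6- and 6.03 and 5.65 in Cxcr5+Bcl6+ cells. The deposited levels of the first and last groups differed (limma adjusted p = 2.89e-05), though both are at or under the receptor-gene percentile. Mx1 had 7.61 and 7.34, 8.21 and 8.04, and 7.52 and 7.50, the Cxcr5+Bcl6+ arrays lying between the Cxcr5-Bcl6- arrays. It was therefore the effector that did not pass against Cxcr5-Bcl6- cells (log2 difference 0.03, 95% interval -0.21 to 0.27). Mx1 was 1.56-fold higher in Cxcr5+Bcl6- cells than in Cxcr5-Bcl6- cells (limma adjusted p = 0.00256). In Cxcr5+Bcl6+ cells it was at least 1.53-fold lower than in Cxcr5+Bcl6- cells (limma adjusted p = 0.0015).

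The remaining effectors also fell against Cxcr5-Bcl6- cells. Isg20, an RNA exonuclease gene, was 2.68-fold lower than in Cxcr5-Bcl6- cells, and Samd9l, which restrains translation and growth, 2.40-fold. Eif2ak2, which encodes the translation-blocking kinase PKR, was at least 2.00-fold lower. Adar, the editor of double-stranded RNA, was 1.55-fold lower, and Rsad2, which encodes viperin, 1.26-fold. Its neighbour Cmpk2, a mitochondrial nucleotide kinase gene, was lower in deposited level (limma adjusted p = 0.00139) with both groups at the receptor-gene level. The fall of Rsad2 did not pass without Cxcr5+Bcl6+ replicate 2 (limma adjusted p = 0.0711, with 0.00402 to 0.0711 over all alternatives). Trex1, which encodes a DNase that clears cytosolic DNA, stood at 9.16 and 9.12, 8.82 and 8.81, and 8.83 and 8.56. It fell against Cxcr5-Bcl6- cells (-0.45, adjusted p = 0.00477) and did not pass against Cxcr5+Bcl6- cells (-0.13, 95% interval -0.35 to 0.10).

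Genes of the Isg15 system and TRIM ligases fell in 4 of 4 cases against each of the other groups. Usp18, which encodes the protease that removes Isg15 and also blocks the interferon receptor, had 11.11 and 11.01 in Cxcr5-Bcl6-, 10.12 and 10.07 in Cxcr5+Bcl6- and 7.57 and 7.56 in Cxcr5+Bcl6+ cells. It was at least 11.3-fold lower in Cxcr5+Bcl6+ cells than in Cxcr5-Bcl6- cells, the largest measured difference of the 38 genes (limma adjusted p = 4.69e-10), and at least 5.79-fold lower than in Cxcr5+Bcl6- cells (adjusted p = 7e-09). It was 1.95-fold lower in Cxcr5+Bcl6- cells than in Cxcr5-Bcl6- cells (adjusted p = 3.59e-05), and the 3 groups did not overlap. Trim25, which encodes a ubiquitin ligase of the RIG-I pathway, had 10.48 and 10.26, 10.26 and 10.31, and 9.31 and 9.43. Trim30a, a mouse TRIM gene that dampens inflammatory signalling, had 12.12 and 12.10, 12.26 and 12.24, and 11.33 and 11.45. For both, the Cxcr5+Bcl6+ arrays were lowest and the steps between the reporter-negative groups (-0.09 and 0.13) did not pass. Herc6, which encodes the mouse Isg15 ligase, had 9.66 and 9.48, 9.80 and 9.70, and 9.12 and 9.28. Its fall against Cxcr5-Bcl6- cells (-0.37, limma adjusted p = 0.0127) did not pass without Cxcr5+Bcl6+ replicate 1 (0.0923) or without Cxcr5-Bcl6- replicate 1 (0.0908), with 0.00697 to 0.0923 over all alternatives.

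Genes for ADP-ribosyltransferases and their partner Dtx3l fell in 4 of 4 cases against each of the other groups, at least 2-fold against Cxcr5+Bcl6- cells in each case. Parp12, which encodes an RNA-binding ADP-ribosyltransferase that inhibits viral translation, had 9.89 and 9.60 in Cxcr5-Bcl6-, 9.30 and 9.21 in Cxcr5+Bcl6- and 7.42 and 7.24 in Cxcr5+Bcl6+ cells. It was at least 5.34-fold lower in Cxcr5+Bcl6+ cells than in Cxcr5-Bcl6- cells and at least 3.80-fold lower than in Cxcr5+Bcl6- cells (limma adjusted p = 3.57e-08 and 4.36e-07). The step between the reporter-negative groups (-0.49, adjusted p = 0.0146) did not pass without Cxcr5-Bcl6- replicate 1 (0.0886) or without Cxcr5+Bcl6- replicate 2 (0.0946), with 0.00536 to 0.0946 over all alternatives.

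Parp14, Dtx3l and Parp9 lie next to each other in the RefSeq gene order. Parp14, which encodes a large macrodomain protein that takes part in interleukin 4 signalling, had 11.49 and 11.35, 11.43 and 11.38, and 10.12 and 10.17. Dtx3l, which encodes the ubiquitin ligase partner of Parp9, had 11.30 and 11.23, 11.41 and 11.42, and 10.28 and 10.26. Parp9 had 11.00 and 10.79, 11.19 and 11.10, and 10.00 and 10.02. In each of the 3 the Cxcr5+Bcl6+ arrays were lowest, by 2.42-fold, 2.00-fold and 1.85-fold against Cxcr5-Bcl6- cells, and the reporter-negative groups were not called different.

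The remaining 8 measured genes were the least uniform, with 6 falling and 1 rising against Cxcr5-Bcl6- cells and 4 falling against Cxcr5+Bcl6- cells. Rtp4, which encodes a receptor transporter that binds viral RNA, had 10.47 and 10.14 in Cxcr5-Bcl6-, 10.06 and 9.79 in Cxcr5+Bcl6- and 6.92 and 7.18 in Cxcr5+Bcl6+ cells. Its level in Cxcr5+Bcl6+ cells was at least 9.56-fold and at least 7.33-fold lower than in those groups (limma adjusted p = 1.56e-08 and 7.63e-08). Lgals3bp, which encodes a secreted galectin-binding glycoprotein, had 11.59 and 11.70, 11.63 and 11.49, and 9.88 and 9.83. Xaf1, which encodes a pro-apoptotic antagonist of XIAP, had 9.92 and 9.91, 10.00 and 9.82, and 8.18 and 8.38. The arrays of the reporter-negative groups overlapped for both of these genes, and the Cxcr5+Bcl6+ arrays were more than 3-fold lower (3.45-fold and 3.10-fold against Cxcr5-Bcl6- cells). Ifi35 had 10.81 and 10.89, 10.58 and 10.61, and 9.47 and 9.51, a 2.56-fold lower level than in Cxcr5-Bcl6- cells.

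The 4 other genes of that group moved little or the opposite way. Daxx, a histone chaperone gene of nuclear bodies, and Ifi27, a gene for a small mitochondrial protein, had falls of 0.36 and 0.34 against Cxcr5-Bcl6- cells that passed (limma adjusted p = 0.0277 and 0.0191). Daxx read 9.84 and 10.19 on the Cxcr5+Bcl6+ arrays against 10.32 to 10.38 on the other 4, and Ifi27 read 9.78 and 10.02 against 10.19 to 10.29. Neither call held without Cxcr5+Bcl6+ replicate 1 (adjusted p = 0.201 and 0.132), nor without Cxcr5-Bcl6- replicate 2 (0.0541 and 0.0743), and that of Daxx ended without Cxcr5-Bcl6- replicate 1 as well (0.0869). Over all alternatives the adjusted p ran from 0.00425 to 0.201 for Daxx and from 0.00925 to 0.132 for Ifi27. Against Cxcr5+Bcl6- cells the differences of -0.33 and -0.29 lay beside the threshold (adjusted p = 0.0505 and 0.0536) and passed without Cxcr5+Bcl6+ replicate 2 (0.00935 and 0.0234) and without either Cxcr5-Bcl6- array (0.0449 and 0.0447 for each), with ranges of 0.00935 to 0.314 and 0.0199 to 0.284. Sp100, a nuclear body gene, was the only one of the 38 to rise against Cxcr5-Bcl6- cells, at 12.08 and 12.12 against 11.79 and 11.74 (log2 difference 0.33, adjusted p = 0.00984). Tor3a, an endoplasmic reticulum ATPase gene, read 9.01 and 9.04, 9.28 and 9.33, and 9.20 and 9.21, and did not pass in any of the 3 comparisons (adjusted p = 0.123, 0.0588 and 0.448). It passed as a rise against Cxcr5-Bcl6- cells after quantile normalisation (0.0373, with 0.0373 to 0.281 over all alternatives). It also passed as a rise from Cxcr5-Bcl6- to Cxcr5+Bcl6- cells after median centring (0.0433) and with either filter on dim probe sets (0.0463 and 0.0279), with 0.0279 to 0.430 over all alternatives.

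**Figure D3:**
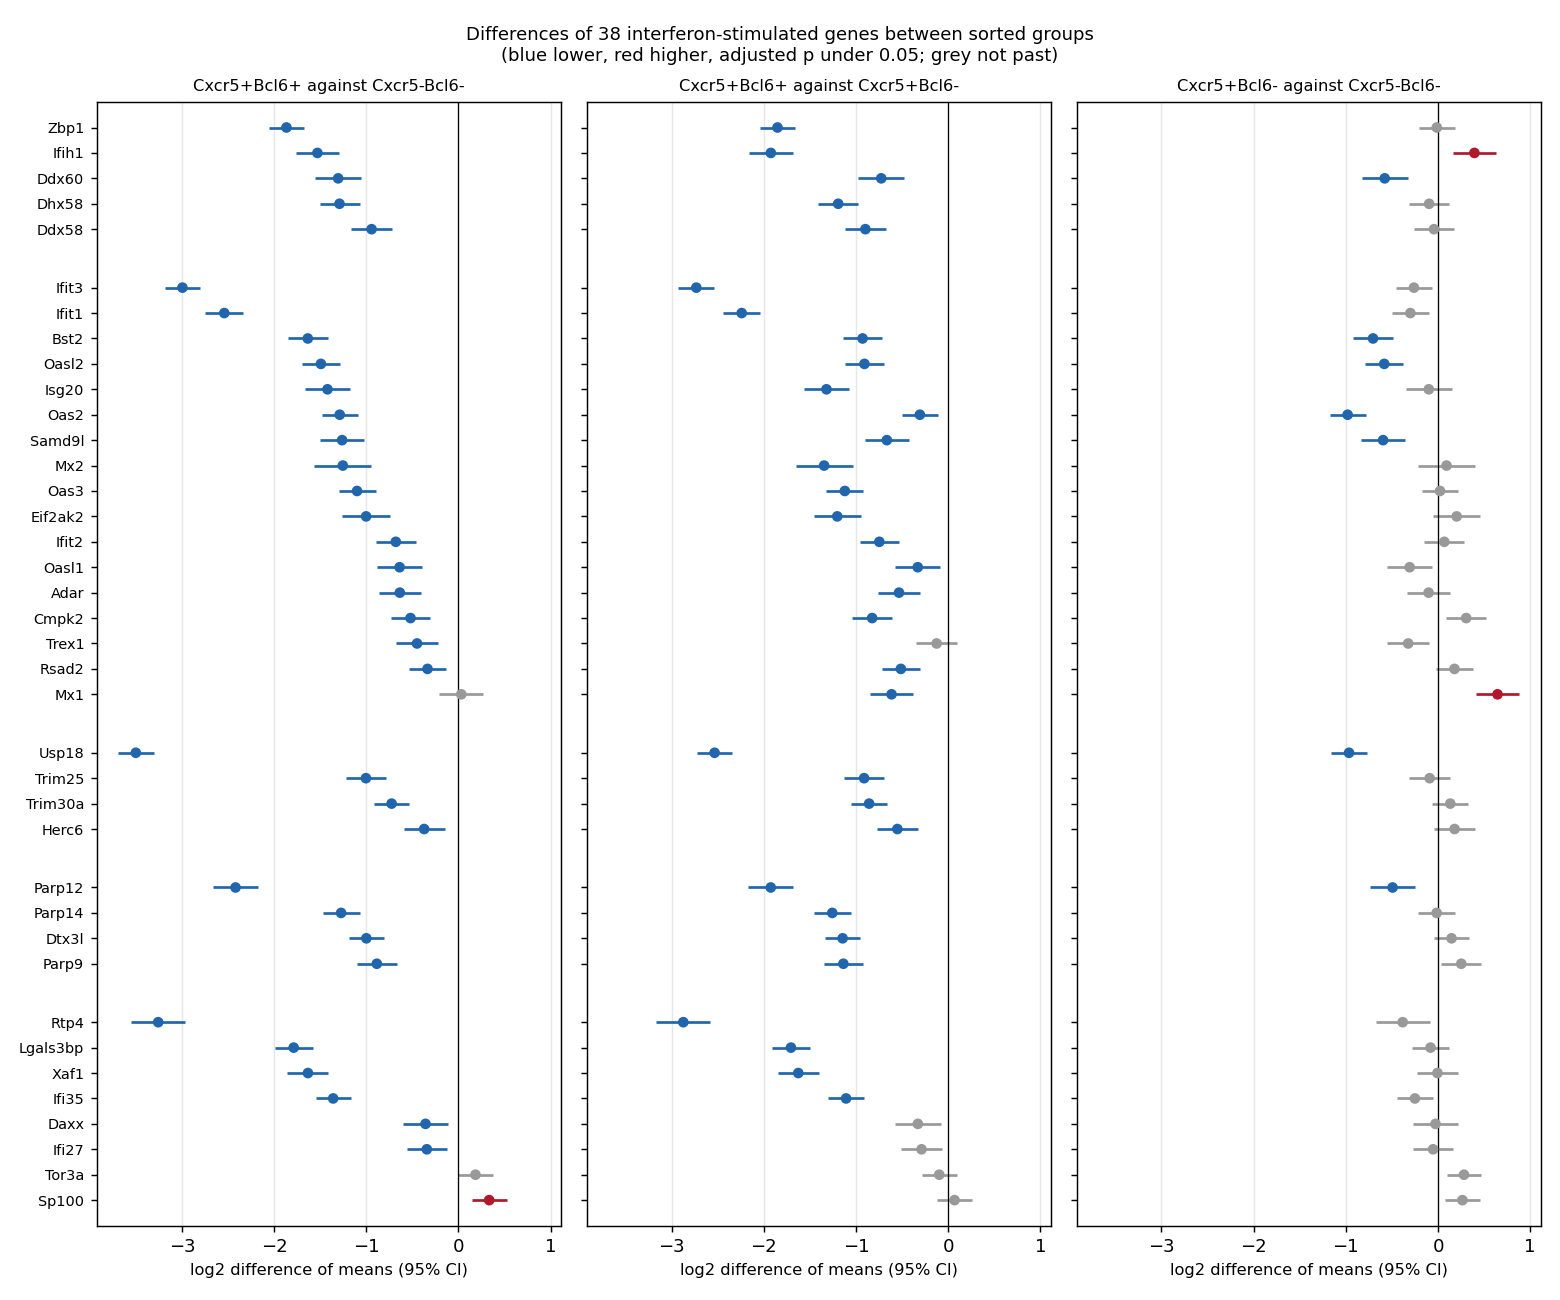
Log2 difference of group means with its 95% confidence interval (x axis) for each of the 38 genes in the 3 comparisons, coloured blue where called lower, red where called higher and grey where not called (limma, adjusted p under 0.05). The intervals are not adjusted for the number of genes. The left and middle panels hold 35 and 33 blue genes, and the right panel 7 blue, 2 red and 29 grey.

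The 7 genes called lower in Cxcr5+Bcl6- cells than in Cxcr5-Bcl6- cells were Oas2, Usp18, Bst2, Samd9l, Ddx60, Oasl2 and Parp12, with log2 differences from -0.98 to -0.49. Each of the 7 was lower again in Cxcr5+Bcl6+ cells than in Cxcr5+Bcl6- cells. The 2 called higher were Mx1 and Ifih1. Markers of plasmacytoid dendritic cells, which are strong producers of type I interferon, also differed between the sorts. Of 10 measured markers 8 were lower in Cxcr5+Bcl6- cells than in Cxcr5-Bcl6- cells, with a median of -1.19, and 8 of 10 were lower in Cxcr5+Bcl6+ cells than in Cxcr5-Bcl6- cells, with a median of -1.41. Against Cxcr5+Bcl6- cells 5 of 10 were lower and 0 higher (0 also at an unadjusted p under 0.05 in limma), with a median of -0.22. On both Cxcr5+Bcl6+ arrays 6 of the 10 were at or under the receptor-gene percentile, which limits how far a fall could show. Siglech read 10.38 and 10.39 in Cxcr5-Bcl6-, 8.11 and 8.11 in Cxcr5+Bcl6- and 7.67 and 7.34 in Cxcr5+Bcl6+ cells, and its log2 difference between the reporter-negative groups was -2.27, as was that of Pld4, with -2.07 for Ccr9 and -2.16 for Ly6d. The summed linear level of the 10 markers was 8020 to 8169, 3164 and 3164, and 2622 to 2838 in the same order, with Dntt at or under the receptor-gene percentile on all arrays. Such a sum, here and below, includes genes at the receptor-gene level, so it cannot give the share of marker RNA left. In Cxcr5+Bcl6+ cells the highest of the 10 were Il3ra (9.57), called in no comparison, and Cox6a2 (8.91). The part of these 10 markers in the falls of the 7 genes, and in the falls in Cxcr5+Bcl6+ cells against either group, was not tested.

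Markers of other cells differed as well. Conventional dendritic and myeloid cell genes were lower in 11 of 15 cases in Cxcr5+Bcl6- and in 10 of 15 in Cxcr5+Bcl6+ cells than in Cxcr5-Bcl6- cells, and 1 was higher in each (summed level 10997 to 11164 in Cxcr5-Bcl6-, 3913 to 3987 in Cxcr5+Bcl6- and 3555 to 3711 in Cxcr5+Bcl6+ cells, with Clec9a, Xcr1 and Csf1r at the receptor-gene level throughout). Between the Cxcr5+ groups 6 of those 15 markers fell and 1 rose, with a median of -0.04. On both Cxcr5+Bcl6+ arrays 11 of the 15 were at or under the receptor-gene percentile. That median therefore cannot show the size of a fall. B cell genes rose in 8 of 9 cases against Cxcr5-Bcl6- cells and in 4 of 9 against Cxcr5+Bcl6- cells (summed level 1300 to 1333, 2308 to 2430 and 3383 to 3496, with Cd79a and Cr2 at the receptor-gene level throughout). Of the 9, 5 were at or under the receptor-gene percentile on both Cxcr5+Bcl6+ arrays. The receptor genes themselves shifted by 0.22 and 0.30 in those comparisons. Of 5 NK cell genes 4, namely Ncr1, Klrb1c, Klra8 and Klre1, were at that level on all arrays (summed level 680 to 683, 512 to 526 and 477 to 504), with 1 rise and 1 fall in each comparison. CD4 T cell genes rose in 4 and fell in 2 of 8 cases against Cxcr5-Bcl6- cells. The part of these markers in the differences was not tested.

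Many of the type I and III interferon genes themselves, though not all, were near the level of unused genes. Ifnl2 (9.28, 9.14 and 9.39), Ifnz (8.58, 8.58 and 9.64) and Ifna5 (8.66, 8.74 and 8.97) stood above the receptor-gene percentile on every array. These are group means for Cxcr5-Bcl6-, Cxcr5+Bcl6- and Cxcr5+Bcl6+ cells. Of 15 measured ligand genes, 9 were at or under the receptor-gene percentile on all 6 arrays, Ifnb1 among them, at 6.37, 6.48 and 6.36 in Cxcr5-Bcl6-, Cxcr5+Bcl6- and Cxcr5+Bcl6+ cells. Against Cxcr5-Bcl6- cells 2 ligands rose in Cxcr5+Bcl6+ cells, Ifnz by 1.06 and Ifna2 by 0.49, and Ifna13 fell by 0.39 on the log2 scale. Ifna2 and Ifna13 are among the 9 at the receptor-gene level, where the receptor genes themselves shifted by 0.22, so Ifnz is the only called ligand above it. Against Cxcr5+Bcl6- cells 3 ligands rose in Cxcr5+Bcl6+ cells and 0 fell (0 also at an unadjusted p under 0.05 in limma). Ifnz rose there by 1.06, Ifna2 by 0.53 and Ifna12 by 0.48. Ifna12 is also among the 9, and the receptor genes shifted by 0.30 in that comparison. Between the reporter-negative groups limma called 0 of 15, with 3 at an unadjusted p under 0.05, 2 of them lower and 1 higher.

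Receptors and downstream factors of the pathway moved in opposite directions. Ifnar1, a chain of the type I interferon receptor, had 11.06 and 10.88 in Cxcr5-Bcl6-, 11.12 and 11.11 in Cxcr5+Bcl6- and 11.48 and 11.51 in Cxcr5+Bcl6+ cells. The other chain, Ifnar2, had 11.28 and 11.09, 11.59 and 11.45, and 11.89 and 11.95. Both were highest in Cxcr5+Bcl6+ cells, by 0.52 and 0.73 against Cxcr5-Bcl6- cells (limma adjusted p = 0.000956 and 0.000125) and by 0.38 and 0.40 against Cxcr5+Bcl6- cells (adjusted p = 0.0109 and 0.0115). The receptor kinases Jak1 and Tyk2 rose by 0.26 and 0.47 against Cxcr5-Bcl6- cells (adjusted p = 0.0404 and 0.012). Neither passed against Cxcr5+Bcl6- cells (0.23 and 0.13, limma adjusted p = 0.0823 and 0.494). Stat2 and Irf9, which are part of the complex that binds the response element, were lowest in Cxcr5+Bcl6+ cells, with log2 differences of -0.63 and -0.61 against Cxcr5-Bcl6- and -0.73 and -0.71 against Cxcr5+Bcl6- cells (adjusted p = 0.000446, 0.000177, 0.000311 and 0.000113). Irf7, an interferon-induced factor that amplifies interferon production, had 10.28 and 10.33, 10.00 and 10.08, and 8.59 and 8.74, a 3.12-fold lower level than in Cxcr5-Bcl6- cells. Of the 11 measured genes of this list 5 rose and 4 fell against Cxcr5-Bcl6- cells, and 3 rose and 3 fell against Cxcr5+Bcl6- cells. Between the reporter-negative groups limma called 0 of 11, with 2 lower and 2 higher at an unadjusted p under 0.05.

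**Figure D4:**
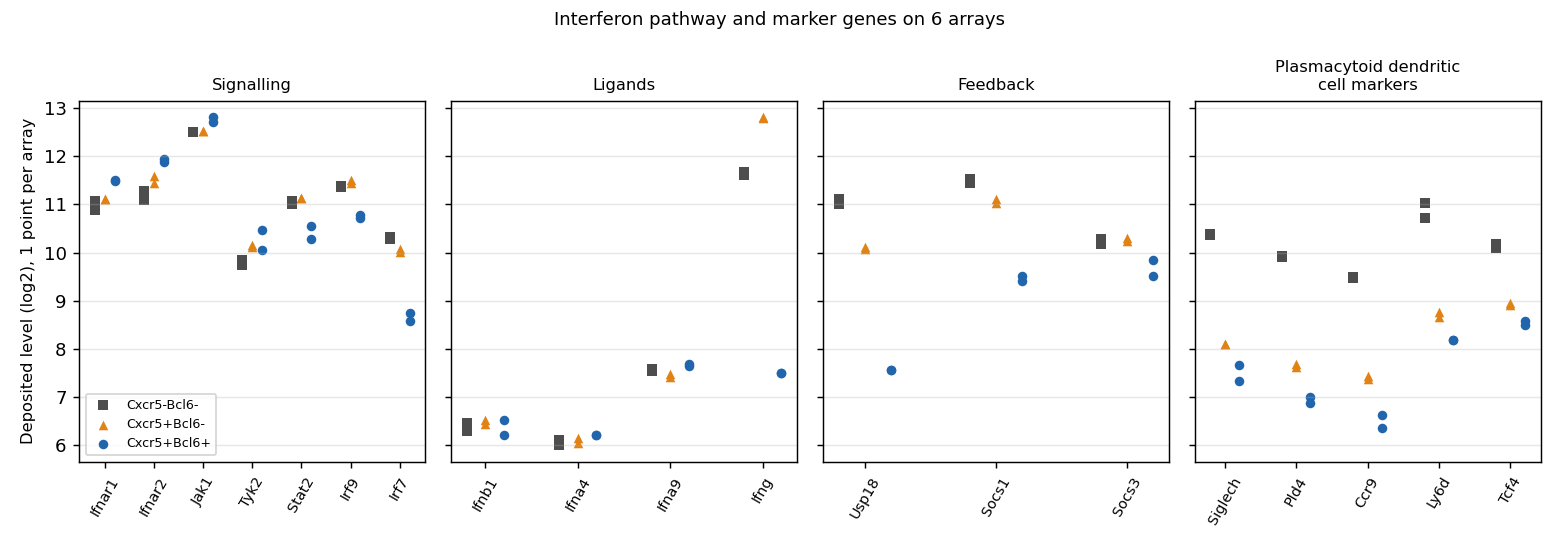
Deposited log2 level (y axis) on each array of interferon signalling genes, ligands, feedback genes and plasmacytoid dendritic cell markers, with grey squares for Cxcr5-Bcl6-, orange triangles for Cxcr5+Bcl6- and blue circles for Cxcr5+Bcl6+ cells. Ifnar1 and Ifnar2 are highest in Cxcr5+Bcl6+ cells while Stat2, Irf9, Irf7, Usp18, Socs1 and Ifng are lowest there, and Siglech, Pld4, Ccr9, Ly6d and Tcf4 already drop between the grey and orange points.

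Interferon gamma differed in order from the list. Ifng read 11.60 and 11.67 in Cxcr5-Bcl6-, 12.80 and 12.82 in Cxcr5+Bcl6- and 7.50 and 7.50 in Cxcr5+Bcl6+ cells, so it was 17.6-fold lower in Cxcr5+Bcl6+ cells than in Cxcr5-Bcl6- cells, 39.6-fold lower than in Cxcr5+Bcl6- cells, and 2.25-fold higher in Cxcr5+Bcl6- cells than in Cxcr5-Bcl6- cells (limma adjusted p = 2.5e-10, 2.23e-11 and 9.26e-06). Its 7.50 in Cxcr5+Bcl6+ cells is under the receptor-gene percentile, so both of those falls are lower bounds. Of the 7 genes of that pathway, 4 fell in Cxcr5+Bcl6+ cells against each of the other groups, Ifng, Ifngr2, Irf1 and Tbx21. Irf1, a factor induced by interferon gamma, had log2 differences of -1.60 and -1.37. The lower level of the interferon-stimulated genes in Cxcr5+Bcl6+ cells thus stood beside low Ifng, and the part of either interferon type was not tested.

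Feedback inhibitors and nucleic acid sensing genes outside the list changed less evenly. Socs1, which encodes an inhibitor of Jak kinases, had 11.45 and 11.52, 11.03 and 11.11, and 9.41 and 9.51, and was 4.06-fold and 3.05-fold lower in Cxcr5+Bcl6+ cells (limma adjusted p = 2.66e-08 and 3.24e-07). The feedback list held Socs1, Socs3, Pias1, Ptpn2, Ptpn6, Ptpn11, Nlrc5, Nlrx1, Trex2 and Samhd1, with Trex2 at the receptor-gene level on all arrays. Of these 10 genes 5 fell and 1 rose against Cxcr5-Bcl6- cells, and 4 fell and 1 rose against Cxcr5+Bcl6- cells. Of 13 measured sensing genes 5 fell and 3 rose against Cxcr5-Bcl6- cells, and 4 fell and 3 rose against Cxcr5+Bcl6- cells. The endosomal RNA receptor gene Tlr7 had the largest measured difference of these, at 8.37 and 8.09, 7.43 and 7.23, and 5.99 and 5.74. The counts of the short lists are to be read beside the shares of all genes tested. Against Cxcr5-Bcl6- cells 17.7% fell and 16.4% rose, and against Cxcr5+Bcl6- cells 13.2% fell and 11.8% rose. Between the reporter-negative groups 5.49% fell and 5.5% rose.

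Promoter sequences are shown because many of the listed genes fell together and are known targets of the interferon-stimulated response element. RefSeq windows of 300 bases (250 before to 50 after each start, GRCm38.p6) were found for 29 of the 40 genes. They were searched for the element's core, which reads GAAA, any 2 bases and GAAA (or TTTC, any 2 bases and TTTC when it lies on the other strand), with overlapping matches counted. Of the 29 genes, 11 held at least 1 match (37.9%), against 1079 of 27025 genes in the whole table (3.99%). By window the counts were 12 of 39 (30.8%) and 1131 of 32851 (3.44%). The match is a description of letters and not of binding, and some genes have several windows. Of the 11 genes, 10 were measured, and 10 of 10 were called lower in Cxcr5+Bcl6+ cells against each of the other groups, with log2 differences of -2.99 to -0.34 against Cxcr5-Bcl6- cells. Of the 17 measured genes whose windows held no match, 16 were lower against Cxcr5-Bcl6- and 14 against Cxcr5+Bcl6- cells, with medians of -0.999 and -0.83 beside -1.20 and -1.03 for the genes with a match. Among genes outside the list, 597 held a match, of which 21.3% fell against Cxcr5-Bcl6- cells, beside 17.7% of the 14990 without one. Against Cxcr5+Bcl6- cells 119 of the 597 fell (19.9%), beside 1950 of the 14990.

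For the 7 measured genes with a match wholly in front of the start, the 160 bases before the start follow, 5′ to 3′ on the gene's strand, with the matched core in capitals. In Bst2 the 2 matches overlap. Parp12, which had the largest measured difference among measured genes whose window held no match, is given last for comparison.
Ifit3, chr19:34583369-34583528, + strand: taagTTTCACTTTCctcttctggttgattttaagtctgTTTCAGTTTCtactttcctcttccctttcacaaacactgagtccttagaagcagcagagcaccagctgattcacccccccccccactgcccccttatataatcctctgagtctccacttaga
Ifit1, chr19:34640729-34640888, + strand: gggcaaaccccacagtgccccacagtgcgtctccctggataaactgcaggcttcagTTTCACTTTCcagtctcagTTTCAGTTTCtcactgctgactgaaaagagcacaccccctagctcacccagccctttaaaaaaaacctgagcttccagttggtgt
Bst2, chr8:71537473-71537632, - strand: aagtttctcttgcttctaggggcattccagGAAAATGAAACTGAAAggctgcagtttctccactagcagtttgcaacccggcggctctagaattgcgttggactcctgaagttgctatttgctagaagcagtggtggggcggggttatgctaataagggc
Ddx60, chr8:61927927-61928086, + strand: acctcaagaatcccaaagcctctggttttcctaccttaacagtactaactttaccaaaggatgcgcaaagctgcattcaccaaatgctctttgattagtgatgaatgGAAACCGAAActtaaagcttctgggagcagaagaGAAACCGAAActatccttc
Oas3, chr5:120777660-120777819, - strand: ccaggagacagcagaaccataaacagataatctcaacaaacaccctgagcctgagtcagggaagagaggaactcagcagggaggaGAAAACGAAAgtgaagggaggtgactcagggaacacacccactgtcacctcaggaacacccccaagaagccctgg
Trim30a, chr7:104465194-104465353, - strand: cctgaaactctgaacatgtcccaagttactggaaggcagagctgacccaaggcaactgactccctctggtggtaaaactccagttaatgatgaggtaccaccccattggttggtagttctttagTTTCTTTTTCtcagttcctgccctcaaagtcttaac
Rsad2, chr12:26456453-26456612, - strand: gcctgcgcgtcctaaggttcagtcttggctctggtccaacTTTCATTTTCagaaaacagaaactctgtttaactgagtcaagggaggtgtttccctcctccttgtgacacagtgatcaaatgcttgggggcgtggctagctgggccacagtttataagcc
Parp12, chr6:39118350-39118509, - strand: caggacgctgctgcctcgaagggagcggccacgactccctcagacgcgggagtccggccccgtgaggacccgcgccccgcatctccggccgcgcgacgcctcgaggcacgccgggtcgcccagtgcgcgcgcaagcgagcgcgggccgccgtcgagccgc
In Ifit3 and Ifit1, whose log2 differences from Cxcr5-Bcl6- cells were -2.99 and -2.54, the element has 2 copies in the same orientation, starting 156 and 122 bases before the start in Ifit3 and 104 and 85 bases before it in Ifit1. Ddx60 also has 2 copies, 53 and 19 bases before the start, and Bst2 has its overlapping pair 130 and 124 bases before it. Against Cxcr5-Bcl6- cells Ddx60 fell at least 2.47-fold and Bst2 3.10-fold. Oas3, Trim30a and Rsad2 have 1 each, at 75, 36 and 120 bases. Their falls against Cxcr5-Bcl6- cells were 2.14-fold, 1.65-fold and 1.26-fold. Ifit3, Ifit1, Ddx60 and Rsad2 were at or under the receptor-gene percentile on both Cxcr5+Bcl6+ arrays, and Oas3 on 1. These falls therefore cannot be ordered by size, and the relation of a fall to the number of copies was not tested. Parp12 fell at least 5.34-fold with no match in its window. The other 3 measured genes with a match, Ddx58, Ifih1 and Eif2ak2, had it after the start.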

How the data were processed

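Total RNA from 6 samples was hybridised to Affymetrix arrays, 1 array per sample, and grouped by sample title. The authors deposited log2 probe-set levels (3.45 to 15.0, the basis for calling the scale log2). Per the submitters' processing notes the tools were GCOS 1.1, RMA and Affymetrix Expression Console, with no settings, and the genome build was not given in the sources used here. The number of arrays limits the precision.

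Of 35556 rows, 21789 probe sets had 1 gene symbol, 1621 several and 12146 none here. The 23410 named ones were fitted with limma 3.58.1 in R 4.3.3 (group means over 6 arrays, eBayes, two-sided, Benjamini-Hochberg over 23410), and the fit was tested on simulated data. A gene was read from its singly named probe set with the highest mean. Probe sets can also read near-identical copies, as in the Ifit and Trim30 families.

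The members and lists were chosen with earlier results of these data known. The rule for named genes gave array values for up to 4 members per role group with the largest change from Cxcr5-Bcl6- to Cxcr5+Bcl6+ cells, named every member not called or against the majority there, and named a few genes of each other list. Further array values were chosen after being seen. Alternatives were an intensity trend, quantile normalisation, median centring, filters on dim probe sets, all rows, the mean of a gene's probe sets, only 4 arrays, a 1.5-fold threshold, a replicate block and leaving out each array.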

Additional observations from a re-analysis of the deposited data

How the results depend on the processing

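No called difference of a member changed sign under any alternative run. The falls in Cxcr5+Bcl6+ cells numbered 29 to 35 of 38 against Cxcr5-Bcl6- and 28 to 35 against Cxcr5+Bcl6- cells, with 32 to 35 and 31 to 35 when 1 array was left out, and their medians were then -1.18 to -1.07 and -0.97 to -0.92. Among probe sets above the median level, which kept 33 of the 38 genes, the median against Cxcr5+Bcl6- cells was -1.11. The 1 rise against Cxcr5-Bcl6- cells (1 with any array left out) became 2 after quantile normalisation and 0 at a 1.5-fold threshold, where 1 passed at an unadjusted p under 0.05 without a fold threshold. Between the reporter-negative groups the 7 falls became 4 at a 1.5-fold threshold, which keeps fewer by construction, 10 among probe sets above the median level, 5 with all rows, where Ddx60 and Parp12 were lost, and 6 to 8 with 1 array left out (median -0.07 to -0.01). The 2 rises became 3 with the intensity trend, quantile normalisation, median centring and both filters on dim probe sets, and 1 with all rows, 1 at a 1.5-fold threshold, 1 with the replicate block and 1 to 2 with 1 array left out, the rise of Ifih1 being the one lost. The cause of these changes was not tested, except where the alternative tests other genes or sets a fold threshold.

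Replicate differences of same-numbered arrays correlated at -0.046, -0.234 and 0.258 between pairs of groups over 23410 probe sets, so the numbers were not taken to pair the samples. With the replicate block the falls were 35, 7 and 32 of 38 against Cxcr5-Bcl6- cells, between the reporter-negative groups and against Cxcr5+Bcl6- cells. With the numbers of the Cxcr5+Bcl6+ arrays crossed, chosen after seeing the data, 35 fell and 1 rose against Cxcr5-Bcl6- cells. Signal limits the 14 genes that reached the receptor-gene level on both Cxcr5+Bcl6+ arrays.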
